A study of Arabidopsis thaliana with 6 samples.

Results

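The genes described here were PR1, PR2, PR5, NPR1, NPR3, NPR4, NIMIN1, EDS1, PAD4 and SAG101, which belong to the salicylic acid (SA) branch of plant immunity. They were chosen by name, from their locus identifiers, and make up 10 of the 32833 genes in the count files. All 10 had enough reads to be tested. EDS1 forms separate complexes with PAD4 and with SAG101 that carry the signal from intracellular immune receptors and promote SA accumulation. SA is bound by NPR1, which then acts as a co-activator with TGA transcription factors at PR genes, and by NPR3 and NPR4, which act as co-repressors at SA-responsive promoters. NIMIN1 binds NPR1 and limits PR1 induction, and PR1, PR2 and PR5 encode secreted defense proteins that serve as standard readouts of the pathway. In leaves, SA and jasmonic acid (JA) signaling often restrain each other.

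RNA was sequenced from Arabidopsis thaliana plants with the roots removed, in 3 genotypes of the Col-0 ecotype with 2 libraries each. Plants were 21 days old, grown on soil without treatment, with 16 h of light at 22 °C and 8 h of dark at 18 °C. Col-0 served as wild type. The LNJ-OX genotype carries a transgene for LITTLE NINJA (LNJ), a FLAG-tagged synthetic microProtein derived from the NINJA-related gene AFP2 and driven by a double CaMV 35S promoter, so the transgene was not limited to 1 cell type. More than 1 such line was phenotyped in the study, and the labels do not say which was sequenced. The jazD line carries mutations in 10 JAZ genes, whose products repress JA responses. The labels call the 2 libraries of a genotype replicates and do not say how many plants each held, and p-values measure the spread between these libraries only.

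Library totals ran from 10164591 to 15003290 counts. Levels are given as CPM, counts per 1000000 counts of the library after TMM scaling for composition. Because RNA came from whole shoots, fewer cells of a type and less RNA per cell cannot be told apart. Summed over 5 leaf mesophyll genes (RBCS1A, RBCS3B, RCA, LHCB3 and CAB3), levels were 29000 and 47600 CPM in the Col-0 libraries, 28300 and 28500 CPM for LNJ-OX, 35800 and 27100 CPM for jazD. The 4 root hair genes examined summed to between 0.283 and 0.774 CPM, and EXPA7, PRP3 and RHS19 were at 0 in at least 1 library. Flower organ genes (5 genes, none at 0) summed to 76.5 and 90.8 CPM in the Col-0 libraries, 46.3 and 86.7 CPM for LNJ-OX, 23.8 and 33.4 CPM for jazD. The 4 pollen genes summed to 127 and 83.9, 3.09 and 34.1, and 8.28 and 14 CPM in the same order, with AGP11 at 0 in LNJ-OX replicate 1. Touch and wound genes of rapid response (6 genes, none at 0) had their lowest sums in Col-0, at 34.3 and 32.1 CPM, against 132 and 99 CPM for LNJ-OX, 68.3 and 64.4 CPM for jazD. Of these, TCH4 was at 5.17 and 8.26 CPM in the Col-0 libraries, 58.6 and 55.3 for LNJ-OX, 21.1 and 18.9 for jazD. CML38 was highest in Col-0 replicate 1, at 5.04 CPM. For 4 senescence genes the sums were 525 and 354 CPM for Col-0, 586 and 461 CPM for LNJ-OX, 646 and 668 CPM for jazD. The genes of this set differed in direction. SAG12 was at 220 and 141 CPM in the Col-0 libraries, 22.7 and 103 for LNJ-OX, 41 and 56.5 for jazD. SAG13 was at 185 and 143, 456 and 255, and 509.1 and 486.5 CPM in the same order. WRKY75 was lowest in Col-0, like SAG13, and NAC029 overlapped between genotypes. Sums of flower genes were thus lowest in jazD, those of pollen genes highest and those of rapid-response genes lowest in Col-0. The part of these gene sets in the results on SA genes was not tested.

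Because TGA and WRKY factors are the known DNA-binding partners and regulators of this pathway, upstream sequences were searched for their motifs. Sequences were read from the TAIR10.1 assembly of RefSeq, upstream of the annotated transcript start, on the strand of the gene. The 3 stretches below are shown because each holds at least 2 of the matches described below. Capitals mark W-boxes (TTGACC or TTGACT) and TGA cores (TGACG), on either strand.
NIMIN1 (chr1:498837-498989, minus strand): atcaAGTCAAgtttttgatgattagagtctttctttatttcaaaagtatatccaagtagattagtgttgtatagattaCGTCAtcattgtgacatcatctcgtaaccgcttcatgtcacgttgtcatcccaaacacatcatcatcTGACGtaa
NPR3 (chr5:18228248-18228398, plus strand): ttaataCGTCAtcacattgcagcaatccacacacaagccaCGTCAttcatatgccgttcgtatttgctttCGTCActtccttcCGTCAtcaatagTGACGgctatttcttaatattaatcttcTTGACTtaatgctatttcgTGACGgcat
NPR4 (chr4:10698822-10698871, minus strand): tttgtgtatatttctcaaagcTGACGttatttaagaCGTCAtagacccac

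Over the 1000 bases upstream of each start, a W-box was present in 7 of the 10 genes, against 67.3% of 27443 protein-coding genes. A TGA core was present in 7 of 10, against 54.1%, and the G-box CACGTG, a motif of bHLH and bZIP factors, in 3 of 10, against 14.8%. In the nearest 250 bases these were 2 of 10 against 28.4%, 2 of 10 against 18.6% and 1 of 10 against 6.5%. As a group the genes were therefore close to the background for W-boxes, and the differences for the other motifs rest on few genes. NPR3 held 7 TGA cores, and 0.07% of the promoters held at least as many. This share was taken for that gene and motif alone, the largest count among the genes plotted. It is therefore not the rarity of a gene named beforehand. PAD4 and NPR1 had no match to any of these motifs in the window. These letters are matches only, and no binding was measured. Among the matches, 1 TGA core of SAG101 shared bases with a G-box.

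**Figure D1:**
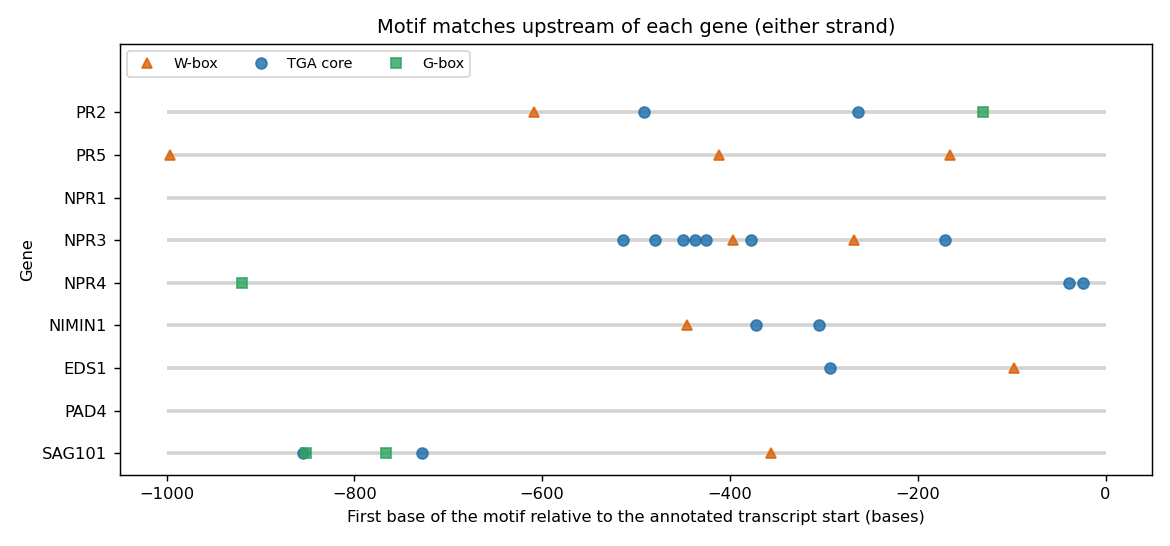
Positions of W-boxes, TGA cores and G-boxes in the 1000 bases upstream of the annotated transcript start of each gene plotted, on either strand. NPR3 has 7 TGA cores, whereas NPR1 and PAD4 have no match.

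PR genes were the most abundant of the group and had its largest log2 fold changes in LNJ-OX against Col-0, although only PR2 passed the test. PR1 (AT2G14610, chr2:6241640-6242541, minus strand), a secreted antimicrobial protein, stood at 69.7 and 172 CPM in the Col-0 libraries, 1105 and 367 CPM for LNJ-OX, 228 and 136 CPM for jazD. Both LNJ-OX libraries lay above all others (24% of all genes tested were above Col-0 in both), but they differed from each other by 3.01-fold, and the Col-0 libraries by 2.47-fold. Relative to Col-0, PR1 in LNJ-OX had a log2 fold change of 2.61 with an SE of 0.56 and, by edgeR, an adjusted p of 0.0243, and was not called. Genes were called at an adjusted p under 0.01 if they also changed by more than 1 on the log2 scale. These cutoffs are the ones applied in the study itself, which reported many more genes at them in both genotypes. The edgeR fit called 179 genes higher and 125 lower in LNJ-OX against Col-0. A gene not called here may therefore have passed in the study. Without LNJ-OX replicate 1 the log2 fold change of PR1 was 1.62 (edgeR adjusted p 0.137), without LNJ-OX replicate 2 it was 3.20 (edgeR adjusted p 0.00132), and without Col-0 replicate 2 it was 3.40 (edgeR adjusted p 0.0334). PR1 thus passed the threshold with LNJ-OX replicate 2 left out and missed it with all 6 libraries.

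PR2 (AT3G57260, chr3:21188397-21189967, minus strand; BGL2 in the annotation), a beta-1,3-glucanase that attacks fungal cell walls, stood at 157 and 253 CPM in the Col-0 libraries, 1093 and 869 CPM for LNJ-OX, 298 and 181 CPM for jazD. It was the PR gene called in LNJ-OX against Col-0, at a log2 fold change of 2.26 (adjusted p 0.00741 by edgeR, SE 0.36), or 4.79-fold, where 0.837% of all genes tested were called higher. Without LNJ-OX replicate 1 the value was 2.1 (edgeR adjusted p 0.0298), without Col-0 replicate 1 it was 1.97 (edgeR adjusted p 0.0324) and without Col-0 replicate 2 it was 2.64 (edgeR adjusted p 0.0111), so that the call was lost each time with the direction kept. PR5 (AT1G75040, chr1:28177670-28179022, plus strand), a thaumatin-like protein, stood at 153 and 287 CPM in the Col-0 libraries, 918 and 699 CPM for LNJ-OX, 434 and 234 CPM for jazD. Its libraries in LNJ-OX did not overlap those of either other genotype. The log2 fold change of PR5 in LNJ-OX was 1.88 (adjusted p 0.0242 by edgeR, SE 0.40) and was not called, and it ranged from 1.51 without Col-0 replicate 1 to 2.41 without Col-0 replicate 2.

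In jazD against Col-0 the PR genes overlapped between genotypes. The log2 fold changes were 0.59 for PR1 (adjusted p 0.737 by edgeR, SE 0.53), 0.22 for PR2 (adjusted p 0.88 by edgeR, SE 0.35) and 0.60 for PR5 (adjusted p 0.579 by edgeR, SE 0.39). In each genotype other than LNJ-OX the 2 libraries differed by 1.61-fold or more for all 3 genes. Between LNJ-OX and jazD the differences were 2.02 for PR1 (adjusted p 0.1 by edgeR, SE 0.55), 2.03 for PR2 (adjusted p 0.0149 by edgeR, SE 0.36) and 1.28 for PR5 (adjusted p 0.159 by edgeR, SE 0.40), and none was called.

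**Figure D2:**
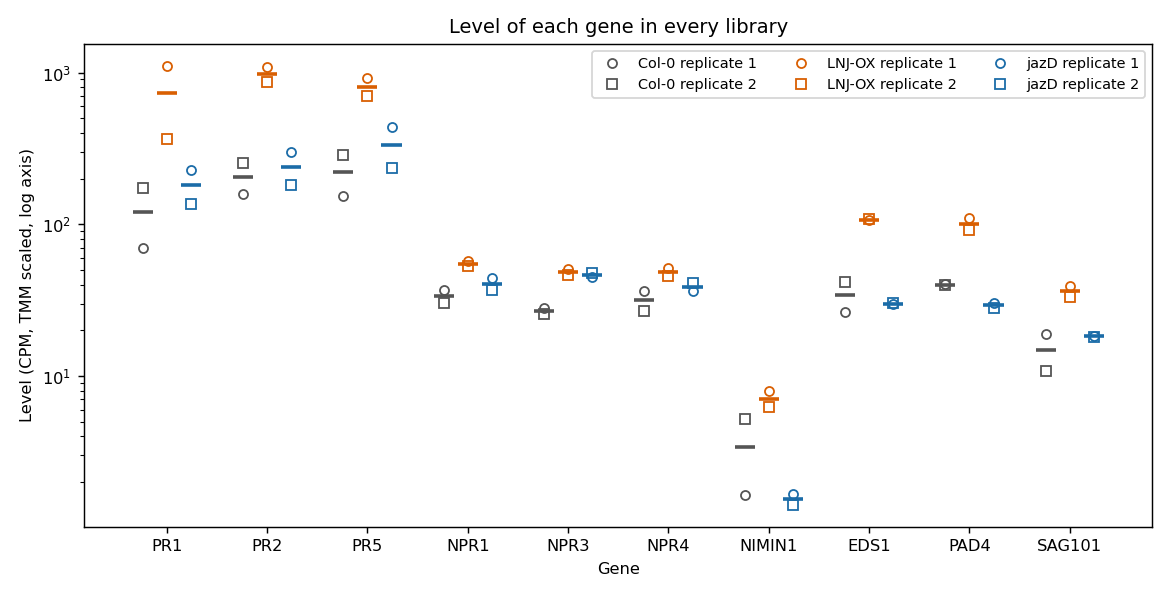
Level of each of the 10 genes in every library, in CPM on a log axis, with circles for replicate 1, squares for replicate 2 and a bar at the mean of the 2 libraries. LNJ-OX lies above both other genotypes in every gene except NPR3, and the replicates of EDS1 and PAD4 lie closer together than those of PR1.

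EDS1 and PAD4 were called higher in LNJ-OX than in both other genotypes, and their LNJ-OX libraries lay close together. EDS1 (AT3G48090, chr3:17755329-17758147, minus strand), a lipase-like protein, stood at 26.6 and 41.3 CPM in the Col-0 libraries, 107 and 108 CPM for LNJ-OX, 29.7 and 30.3 CPM for jazD. The LNJ-OX libraries differed from each other by 1.01-fold and lay well above all others. In LNJ-OX against Col-0 the log2 fold change of EDS1 was 1.66 (adjusted p 0.00665 by edgeR, SE 0.26), or 3.16-fold, and EDS1 was called. In jazD it was -0.18 (adjusted p 0.868 by edgeR, SE 0.26). The direct difference between LNJ-OX and jazD was 1.84 (adjusted p 0.00421 by edgeR, SE 0.26) and was called.

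PAD4 (AT3G52430, chr3:19431095-19434450, plus strand), the lipase-like partner with which EDS1 signals in basal resistance, stood at 40.2 and 39.6 CPM in the Col-0 libraries, 109 and 91.8 CPM for LNJ-OX, 30.4 and 28.0 CPM for jazD. The genotypes did not overlap, and jazD was the lowest. PAD4 was called higher in LNJ-OX than in Col-0, at 1.33 (adjusted p 0.00878 by edgeR, SE 0.23), and higher than in jazD, at 1.78 (adjusted p 0.00243 by edgeR, SE 0.23). In jazD against Col-0 the log2 fold change was -0.45 (adjusted p 0.413 by edgeR, SE 0.23), which did not pass.

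SAG101 (AT5G14930, chr5:4828499-4830982, plus strand), the other lipase-like partner of EDS1, stood at 19.0 and 10.8 CPM in the Col-0 libraries, 39.2 and 33.3 CPM for LNJ-OX, 18.4 and 18.2 CPM for jazD. LNJ-OX again lay above all others, but the Col-0 libraries differed by 1.76-fold. The log2 fold change was 1.28 in LNJ-OX against Col-0 (adjusted p 0.0283 by edgeR, SE 0.28) and 0.99 in LNJ-OX against jazD (adjusted p 0.121 by edgeR, SE 0.28), and neither was called. Against Col-0 the value was 0.94 without Col-0 replicate 2 and 1.77 without Col-0 replicate 1. In jazD it was 0.29 (adjusted p 0.771 by edgeR, SE 0.29).

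The calls of EDS1 and PAD4 were close to the threshold. In LNJ-OX against Col-0, EDS1 was at an adjusted p of 0.0239 in edgeR without Col-0 replicate 1, 0.0236 without LNJ-OX replicate 1, 0.0132 without jazD replicate 1 and 0.0129 without jazD replicate 2. PAD4 was at 0.0106 with limma-voom, and its edgeR adjusted p was between 0.0142 and 0.0808 with any 1 library left out. Log2 fold changes stayed between 1.39 and 2.01 for EDS1 and between 1.21 and 1.45 for PAD4. Against jazD, edgeR adjusted p-values without jazD replicate 1 and without jazD replicate 2 were 0.0674 and 0.0856 for EDS1 and 0.0411 and 0.0769 for PAD4. For PAD4 the value without LNJ-OX replicate 1 was 0.0112.

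EDS1 lies beside a copy, AT3G48080, whose coding sequence was 82.0% identical to it, with a longest identical run of 44 bases. None of the 1798 windows of 75 coding bases of EDS1 was found in the copy. AT3G48080 had log2 fold changes of 0.78 in LNJ-OX (adjusted p 0.172 by edgeR, SE 0.29) and -0.55 in jazD (adjusted p 0.466 by edgeR, SE 0.30) against Col-0, and 1.33 between LNJ-OX and jazD (adjusted p 0.0486 by edgeR, SE 0.30). Summed over both genes the levels were 36.5 and 53.7 CPM in the Col-0 libraries, 129 and 124 CPM for LNJ-OX, 38.6 and 36.6 CPM for jazD. EDS1 itself made up between 72.8 and 87.0% of the sum, and the sum, like EDS1 alone, was highest in both LNJ-OX libraries. AT3G48080 overlaps AT3G48070 on the opposite strand by 503 bases, and the strand setting of the counting is not given in the sources used here, which makes its value uncertain.

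**Figure D3:**
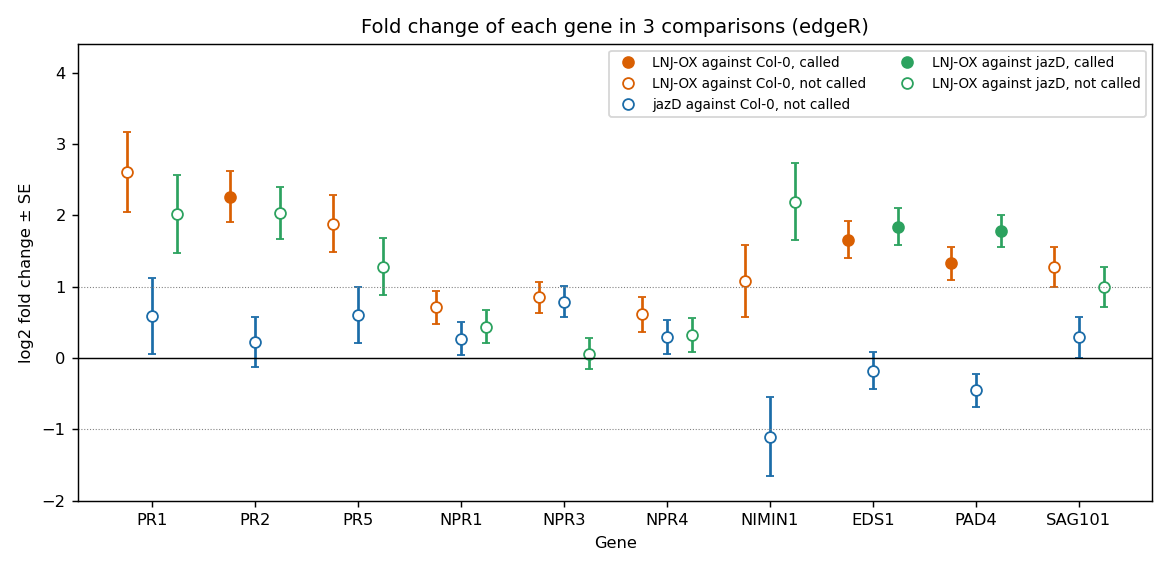
Log2 fold change with its SE for each gene in LNJ-OX against Col-0, jazD against Col-0 and LNJ-OX against jazD, from edgeR, with filled points for called genes and dotted lines at 1 and -1. PR2, EDS1 and PAD4 were called in LNJ-OX against Col-0, no gene was called in jazD, and EDS1 and PAD4 were called between LNJ-OX and jazD.

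None of the genes of the SA receptors was called in any comparison. Over all genes, 1.42% were called in LNJ-OX, 1.11% in jazD and 0.781% between LNJ-OX and jazD, so this absence says little. Unadjusted p-values by edgeR in LNJ-OX against Col-0 were 0.00975 for NPR1, 0.0024 for NPR3 and 0.0258 for NPR4. At an unadjusted p under 0.05, 8.97% of all genes were higher. NPR1 (AT1G64280, chr1:23852748-23855658, minus strand), the co-activator, stood at 36.7 and 30.2 CPM in the Col-0 libraries, 57.3 and 52.8 CPM for LNJ-OX, 44.2 and 36.9 CPM for jazD. Both LNJ-OX libraries were the highest, and the log2 fold change against Col-0 was 0.71 (adjusted p 0.116 by edgeR, SE 0.23), which was not called. In jazD it was 0.27 (adjusted p 0.705 by edgeR, SE 0.23). NPR1 overlaps AT1G08667 on the opposite strand by 214 bases, and that gene had 62 and 19 counts in the Col-0 libraries, 125 and 109 counts for LNJ-OX, 50 and 23 counts for jazD. AT1G08667 was highest in the same libraries as NPR1, and whether strand or overlap affected either count was not tested.

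NPR3 (AT5G45110, chr5:18228768-18231588, plus strand), a co-repressor, was the one gene of the group at which libraries of jazD and LNJ-OX overlapped. It had 27.9 and 25.6 CPM in the Col-0 libraries, 50.6 and 46.2 CPM for LNJ-OX, 45.0 and 47.8 CPM for jazD. Both genotypes lay above Col-0 without overlap, and the 2 libraries of a genotype differed by at most 1.1-fold. The log2 fold changes against Col-0 were 0.85 in LNJ-OX (adjusted p 0.0497 by edgeR, SE 0.22) and 0.79 in jazD (adjusted p 0.0766 by edgeR, SE 0.22), and neither was called. Between LNJ-OX and jazD the difference was 0.06 (adjusted p 0.941 by edgeR, SE 0.22).

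NPR4 (AT4G19660, chr4:10696266-10698811, minus strand), the other co-repressor, stood at 36.3 and 26.7 CPM in the Col-0 libraries, 51.1 and 45.4 CPM for LNJ-OX, 36.4 and 40.9 CPM for jazD. Its log2 fold changes were 0.61 in LNJ-OX (adjusted p 0.193 by edgeR, SE 0.24) and 0.29 in jazD (adjusted p 0.691 by edgeR, SE 0.24), and neither was called. Coding sequences of NPR3 and NPR4 were 71.8% identical, and those of NPR1 were 52.8% identical to NPR3 and 50.7% to NPR4. No window of 75 coding bases was shared among the 3 genes.

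NIMIN1 (AT1G02450, chr1:497917-498539, minus strand), the inhibitor that binds NPR1, was the least abundant gene, with between 15 and 120 counts in a library. It stood at 1.64 and 5.17 CPM in the Col-0 libraries, 7.90 and 6.20 CPM for LNJ-OX, 1.68 and 1.41 CPM for jazD. The Col-0 libraries differed by 3.15-fold, and Col-0 replicate 1 lay at the level of jazD. Relative to Col-0, NIMIN1 in LNJ-OX had a log2 fold change of 1.08 (adjusted p 0.283 by edgeR, SE 0.50), which became 0.47 without Col-0 replicate 1 and 2.1 without Col-0 replicate 2. In jazD it was -1.10 (adjusted p 0.412 by edgeR, SE 0.55), with -1.72 and -0.08 in the same order. Between LNJ-OX and jazD, whose replicates lay close together, NIMIN1 differed by 2.19 (adjusted p 0.0713 by edgeR, SE 0.54), the largest value of the 10 genes in that comparison, and was not called.

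Over the whole group, 3 of 10 genes were called higher in LNJ-OX against Col-0 and none lower, where 0.837% of the 21374 genes tested were called higher and 0.585% lower. At an edgeR adjusted p under 0.05, with no minimum fold change, 7 of 10 were higher, against 2.56% of all genes. At an unadjusted p under 0.05 it was 9 of 10, against 8.97%, the exception being NIMIN1. All 10 lay above Col-0 in both LNJ-OX libraries, against 24% of all genes, and their median log2 fold change was 1.30, against -0.01 over all genes tested. The genes were chosen with earlier results of these libraries known, so these counts describe them and do not test the group. When the comparison was fitted on the 4 libraries of LNJ-OX and Col-0 alone, none of the 10 was called, against 0.799% of all genes called in either direction. With DESeq2 5 were, in a fit that called 3.85% of all genes, where edgeR on all 6 libraries called 1.42%.

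In jazD against Col-0 no gene of the group was called by edgeR, DESeq2 or limma-voom, where edgeR called 0.44% of all genes higher and 0.674% lower. NPR3 was the one gene with an unadjusted p under 0.05 in edgeR (0.00399), against 6.26% of all genes that were higher at that limit. The median log2 fold change was 0.28, against 0.01 over all genes, with values from -1.10 for NIMIN1 to 0.79 for NPR3. NPR1, NPR3 and NPR4 lay above Col-0 without overlap, against 19.5% of all genes, and PAD4 below, against 21.1%. For NPR1 and NPR4 the nearest libraries were almost level. They were at 36.86 CPM in jazD and 36.73 CPM in Col-0 for NPR1, and at 36.39 and 36.29 CPM for NPR4. SEs in this comparison were between 0.22 and 0.55, and a change below 1 on the log2 scale could not be called whatever its p.

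Directly compared, LNJ-OX was above jazD in both libraries for 9 of the 10 genes, against 25.5% of all genes, and NPR3 overlapped. EDS1 and PAD4 were called, against 0.449% of all genes called higher and 0.332% lower, and 7 of 10 genes had an unadjusted p under 0.05, against 7.72%. The median difference was 1.53, against 0 over all genes. Both comparisons with Col-0 share the Col-0 libraries, and the direct comparison does not use them for its fold changes.

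**Figure D4:**
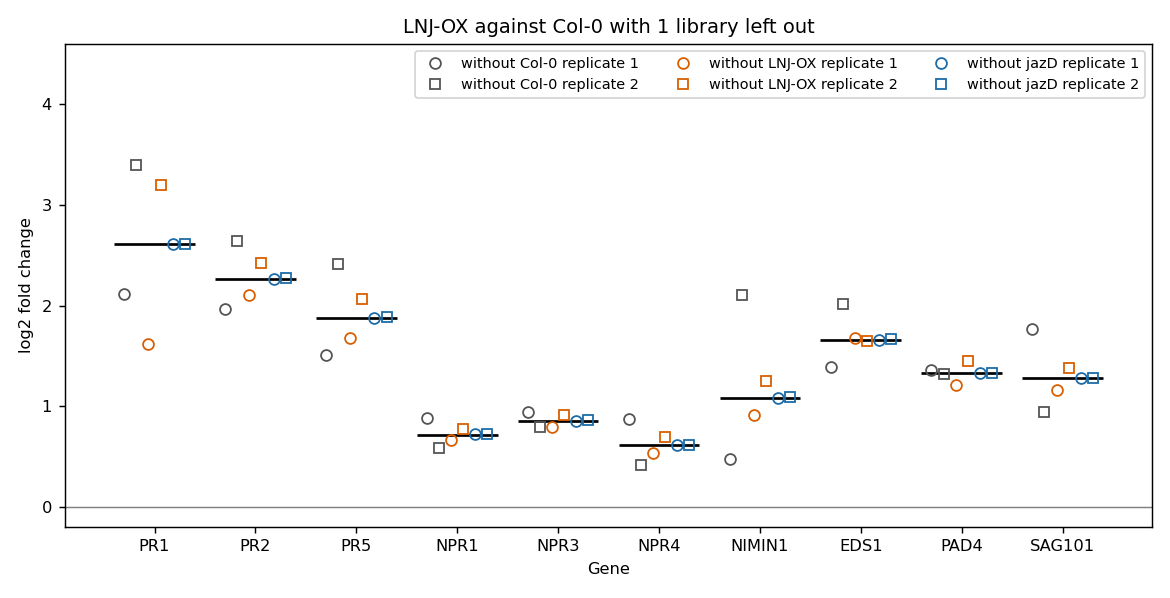
Log2 fold change of each gene in LNJ-OX against Col-0 with 1 library left out of the fit, beside the value from all 6 libraries as a black line. PR1 ranges from 1.62 to 3.40 and NIMIN1 from 0.47 to 2.1, whereas PAD4 stays between 1.21 and 1.45, and all values are above 0.

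To see where the group stood within the pathway, 37 further genes in 6 lists were counted, of which 36 were tested. In LNJ-OX against Col-0, 6 were called higher and none lower, against 0.837% and 0.585% of all genes tested. In jazD none was called by edgeR, against 0.44% higher and 0.674% lower, and at an unadjusted p under 0.05 there were 6 higher and 1 lower, against 6.26% and 8.59%. The median log2 fold change of the 36 genes was 0.86 in LNJ-OX, against -0.01 over all genes, and 0.14 in jazD, against 0.01. Of the genes of SA synthesis, its transport and its regulators, 5 of 6 were called higher in LNJ-OX (ICS1, EDS5, PBS3, CBP60G and SARD1), against 0.837% of all genes. The remaining gene, EPS1, which acts in SA synthesis downstream of PBS3, lay below Col-0 in both LNJ-OX libraries at -0.59 (adjusted p 0.302 by edgeR, SE 0.28) and was not called. CBP60G, which encodes a calmodulin-binding transcription factor that activates ICS1, had the largest value of these, at 2.93 (adjusted p 0.00193 by edgeR, SE 0.34). It stood at 26.7 and 12.8 CPM in the Col-0 libraries, 162 and 141 CPM for LNJ-OX, 35.9 and 32.8 CPM for jazD.

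TGA factor genes encode the proteins that bring NPR proteins to DNA. None of 7 was called by edgeR in any comparison. Over all genes, 1.42% were called in LNJ-OX, 1.11% in jazD and 0.781% between LNJ-OX and jazD. None of the 7 had an unadjusted p under 0.05, where 8.97% of all genes were higher in LNJ-OX and 6.26% in jazD. With shares this low, an absence of calls among 7 genes says little about them. Their median was -0.09 in LNJ-OX and 0 in jazD. The largest values in LNJ-OX were -0.38 for TGA6 (adjusted p 0.516 by edgeR, SE 0.28) and for TGA7 (adjusted p 0.613 by edgeR, SE 0.35).

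Of 8 SA-responsive WRKY and glutaredoxin genes, 1 was called higher in LNJ-OX, against 0.837% of all genes. This was WRKY38, at 2.54 (adjusted p 0.00513 by edgeR, SE 0.37). WRKY38 encodes a transcription factor that limits SA-dependent defense, and stood at 2.58 and 3.66 CPM in the Col-0 libraries, 23.1 and 12.9 CPM for LNJ-OX, 5.56 and 5.66 CPM for jazD. All 8 had positive log2 fold changes in LNJ-OX, with a median of 1.19, and 7 were higher at an unadjusted p under 0.05, against 8.97% of all genes. In jazD the median was 0.74 and none was called by edgeR, against 0.44% of all genes called higher and 0.674% lower. At an unadjusted p under 0.05, 3 were higher in jazD, against 6.26%. WRKY62, the closest relative of WRKY38 in the list, had 2.19 in LNJ-OX (adjusted p 0.15 by edgeR, SE 0.77). It had few counts: 4 and 12 in the Col-0 libraries, 69 and 16 for LNJ-OX, 15 and 16 for jazD. The high level was thus seen in LNJ-OX replicate 1 only.

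Helper receptor genes, whose products act with the EDS1 complexes, did not all move together in LNJ-OX against Col-0. AT5G66900 was at -0.03 (adjusted p 0.965 by edgeR, SE 0.27) and its libraries overlapped. AT5G66910 was at 0.77 (adjusted p 0.115 by edgeR, SE 0.25). The ADR1 genes had positive values. ADR1-L1, with 58.7 and 48.8 CPM in the Col-0 libraries, 153 and 126 CPM for LNJ-OX, 63.3 and 49.9 CPM for jazD, had a log2 fold change of 1.38 in LNJ-OX (adjusted p 0.0126 by edgeR, SE 0.25) and ADR1-L2 one of 1.2 (adjusted p 0.0144 by edgeR, SE 0.23). Neither was called. The median of the list of 6, which also holds AT3G48080, was 0.98 in LNJ-OX and 0.11 in jazD. Among 5 genes related to the NPR and NIMIN members none was called in any comparison. Of all genes, 1.42% were called in LNJ-OX, 1.11% in jazD and 0.781% between LNJ-OX and jazD. The list had a median of 0.41 in LNJ-OX and 0.12 in jazD. In LNJ-OX, BOP1 (-1.15), NIMIN3 (-0.19) and BOP2 (0.41) overlapped with Col-0. The closest relative of NPR1, AT4G26120, whose coding sequence was 70.9% identical to it, had 1.41 in LNJ-OX (adjusted p 0.0589 by edgeR, SE 0.37) and 1.92 between LNJ-OX and jazD (adjusted p 0.031 by edgeR, SE 0.39). NIMIN2, another NPR1-binding protein, had 1.26 in LNJ-OX (adjusted p 0.0748 by edgeR, SE 0.36).

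Relatives of the PR members did not all share one direction. BG3, a glucanase gene near PR2 with a coding sequence 70.9% identical to it, stood at 3.59 and 5.17 CPM in the Col-0 libraries, 27.5 and 13.3 CPM for LNJ-OX, 7.45 and 2.17 CPM for jazD, a log2 fold change of 2.23 in LNJ-OX (adjusted p 0.0327 by edgeR, SE 0.51). PRB1, 83.5% identical to PR1, had 1.77 in LNJ-OX (adjusted p 0.225 by edgeR, SE 0.73), and BG1 had too few counts to be tested. PR4 and PR3 (HCHIB in the annotation), a hevein-like protein and a chitinase that are known as markers of JA and ethylene responses, were highest in jazD. PR4 stood at 59.1 and 187 CPM in the Col-0 libraries, 145 and 52.2 CPM for LNJ-OX, 865 and 560 CPM for jazD, with a log2 fold change of 2.53 in jazD (adjusted p 0.035 by edgeR, SE 0.58). Between LNJ-OX and jazD the differences were -2.85 for PR4 (adjusted p 0.0324 by edgeR, SE 0.59) and -3.08 for PR3 (adjusted p 0.0322 by edgeR, SE 0.63). The sign was thus opposite to that of PR1, PR2 and PR5 in the same comparison. None of the 5 differences was called, against 0.781% of all genes called in either direction.

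**Figure D5:**
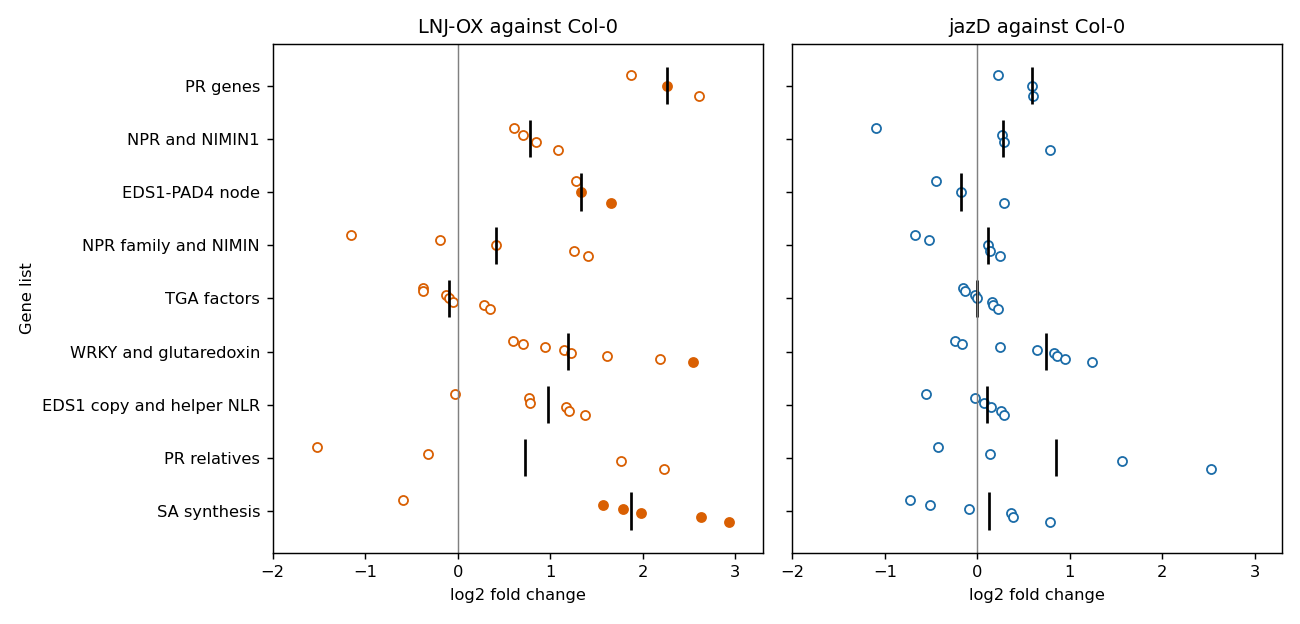
Log2 fold changes of the 10 genes in their 3 roles and of the 6 pathway lists, in LNJ-OX (left) and jazD (right) against Col-0, with filled points for called genes and a black line at each list's median. SA synthesis and PR genes lie highest in LNJ-OX, with medians of 1.88 and 2.26, and TGA factors lie at -0.09.

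Levels were set against each other per length, as CPM per kb of annotated exon. In Col-0 the PR genes had means of 134 (PR1), 139 (PR2) and 201 (PR5) CPM per kb, and the order among them lay within the spread between libraries. PAD4 followed at 17.7, then EDS1 at 13.3, NPR4 at 13.3, NPR1 at 12.8 and NPR3 at 10.1, then SAG101 at 6.76 and NIMIN1 at 5.46. The libraries of EDS1, NPR4 and NPR1 overlapped in Col-0, as did those of SAG101 and NIMIN1. In LNJ-OX, PAD4 (44.6) and EDS1 (42.0) stood above NPR1 (21.1), NPR4 (20.3), NPR3 (18.2) and SAG101 (16.5), whose libraries overlapped with those of NPR3, and NIMIN1 was last at 11.3. NPR3 (17.5), NPR4 (16.3) and NPR1 (15.5) stood above PAD4 (13.0) and EDS1 (11.8) in jazD, and the libraries of PAD4 and EDS1 did not overlap with those of the 3 NPR genes.

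Genes with a pattern most like PR1 and PAD4 were found by Pearson r of log2 CPM over the 6 libraries, among 13445 other genes with a mean of at least 10 CPM. The libraries share their genotypes, so these coefficients are a description. The 5 closest to PR1 were AT3G45620 (r 0.999), PPI1 (0.997), PCR1 (0.996), AT1G15790 (0.994) and DAL1 (0.986). PCR1 had 80.2 and 131 CPM in the Col-0 libraries, 404 and 191 CPM for LNJ-OX, 152 and 122 CPM for jazD, and thus shared with PR1 the excess of LNJ-OX replicate 1. The 5 closest to PAD4 were AT1G10340 (0.992), PBS3 (0.99), GAUT4 (0.99), BIP3 (0.988) and AT1G69840 (0.987). AT1G10340 had 9.26 and 9.58 CPM in the Col-0 libraries, 45.5 and 44.4 CPM for LNJ-OX, 7.55 and 5.47 CPM for jazD. Likeness of pattern does not carry size, since GAUT4 changed by 0.28 in LNJ-OX against Col-0, where PAD4 changed by 1.33 and PBS3 by 1.79.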

How the data were processed

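For each of the 6 libraries the authors deposited gene-level read counts. Their processing notes list the TAIR10 build with Trim Galore 0.6.3, HISAT2 2.1.0 and HTSeq 0.9.1, and the strand setting is not given in the sources used here. By default htseq-count leaves out reads that fall on more than one gene, and counts of overlapping genes or close copies are uncertain. Deposited tables of the authors' own limma-voom comparisons were not used. The study's Methods name leaves as the tissue and give a slightly younger age. The labels, which describe plants with the roots removed, were followed.

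All 6 libraries entered 1 quasi-likelihood fit (glmQLFit, glmQLFTest) with TMM scaling in edgeR 4.0.16 under R 4.3.3. The filterByExpr function left 21374 genes, over which p-values were adjusted (Benjamini-Hochberg). SEs are the log2 fold change divided by the square root of F. No pair of replicates looked like 1 library deposited again: chi-square over degrees of freedom was 42.85 for Col-0, 16.77 for LNJ-OX and 14.77 for jazD. On simulated data for LNJ-OX against Col-0 (20989 genes), 155 of 200 genes changed 4-fold were recovered, with 2 false calls. Smaller changes, such as 3.16-fold for EDS1 and 2.52-fold for PAD4 in that comparison, were not simulated, so their recovery is not known. Alternatives used limma 3.58.1 and DESeq2 1.42.0.

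Gene names, exon lengths and sequences came from TAIR10.1, whose nuclear chromosomes are those of TAIR10. Proteins were not analysed here, and coding nucleotides were compared in their place. The windows of 1000 and 75 bases and the sum of EDS1 with its copy were added after the data were seen. An upstream stretch and its matches are not reported here. The members and lists were chosen with earlier results of these data known. Genes outside the members were named if called, if among the 2 largest absolute changes of a list, if most alike to PR1 or PAD4, or if a copy or neighbour of a member. AT1G08667 overlaps a member. PR3, EPS1, AT5G66900, AT5G66910, BOP1, BOP2, NIMIN3 and the single senescence and rapid-response genes were named after their values were seen.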

Additional observations from a re-analysis of the deposited data

How the results depend on the processing

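Alternatives were run for the counts of called genes and for each of the 10 genes in 3 comparisons. The count of the 10 genes called in LNJ-OX against Col-0 (3) was 6 with no filter on low counts, 5 with DESeq2 and 0 with the 4 libraries compared, where these called 5.09, 3.85 and 0.799% of all genes against 1.42%, 7 when the adjusted p limit was 0.05 and 9 when an unadjusted limit of 0.05 was used. With 1 library left out it ranged from 0 to 3, and from 0 to 3 in LNJ-OX against jazD, where it was 2 with all libraries. A lone library was assumed to vary like the other groups. With Col-0 replicate 1, or LNJ-OX replicate 1, left out no gene was called in LNJ-OX against Col-0, and with either jazD library left out none was called in LNJ-OX against jazD. Without Col-0 replicate 1 the share of all genes called fell from 1.42 to 0.0503%. In LNJ-OX against jazD the count was 6 with no filter (3.42% of all genes called, against 0.781%) and 7 at an unadjusted p under 0.05. In jazD against Col-0 it was 0 under every alternative run, except 1 at an unadjusted p under 0.05. Of the 37 pathway genes, 6 were called in LNJ-OX (1.42% of all genes). This was 16 with no filter (5.09% of all genes) and 12 with DESeq2 (3.85%). In jazD none was called (1.11% of all genes), 2 with no filter (4.77%) and 1 with the 4 libraries compared (2.78%). Between LNJ-OX and jazD 4 were called (0.781% of all genes), 15 with no filter (3.42%) and 11 with DESeq2 (2.31%). There were 7 with the 4 libraries compared (1.18%) and 8 with a replicate block (1.66%). Each of these counts also moved when 1 library was left out. The cause of these shifts was not tested, except that leaving out a library leaves fewer samples.

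Direction turned in 4 results, none of them called, when 1 library was left out. In jazD against Col-0, PR2 ranged from -0.17 (without jazD replicate 1; -0.06 without Col-0 replicate 1) to 0.61, EDS1 from -0.44 to 0.17 and SAG101 from -0.05 to 0.78, with EDS1 and SAG101 turning without Col-0 replicate 2. NPR3 in LNJ-OX against jazD ranged from 0, without LNJ-OX replicate 1, to 0.12. With library totals in place of TMM, 171 of all genes were higher and 60 lower in LNJ-OX, against 179 and 125. The ratio of NPR4 to NPR1 in Col-0 was 1.03 per kb and 0.935 in CPM without length. Deviations from the genotype mean were close to unrelated between libraries with the same label number (r 0.089, 0.059 and -0.003). The deposited names of the second Col-0 and jazD libraries carry the number 3, so which libraries share a number is uncertain. For that reason these r values cannot show whether libraries were paired. With the labels' number as a replicate block 4 of the 10 genes were called in LNJ-OX, 0 in jazD and 3 between LNJ-OX and jazD. The shares of all genes called were then 3.13, 3.06 and 1.66%, against 1.42, 1.11 and 0.781% without the block.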
